A study of Homo sapiens with 19 samples.

Results

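Epithelial cells that carry the keratin KRT7 were examined in human liver organoids with and without TGFB1. A cell was counted when it had at least 2 KRT7 UMIs (unique molecular identifiers, 1 per captured transcript), at least 1 EPCAM UMI, and no UMI of the fibrillar collagen genes COL1A2 and COL3A1. Cells were left out when AFP, AMBP, AGT, FGB and SERPINA1 together reached both 5 UMIs and 0.3% of the cell's UMIs. In the 4 libraries of the TGFB1 experiment, 1911 of 31026 cells met these conditions (6.16%), all cells with fewer than 500 genes or over 20% mitochondrial counts having been removed. The whole series held 120240 cells of any type past the same gene and mitochondrial filters, in 19 libraries.

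The organoids were grown from W01, an established human pluripotent stem cell line of wild-type genotype, on an orbital shaker. They were cultured for 20 days and then exposed to TGF-β1 at 10 ng/ml for 5 days (2 libraries) or kept as the matched control to day 25 (2 libraries). The labels do not say what the control cultures received, and each library is 1 droplet capture (10x Genomics 3′ version 3 chemistry) of a culture that holds several cell types. The labels do not say that replicates came from separate cultures, so the p-values below rest on a spread between libraries that may be technical. That spread was estimated partly across genes, so a p-value need not follow the 2 control values of its own gene.

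Control replicate 1 stood apart in depth. Its median was 1104 UMIs per barcode, against 5375 in control replicate 2 and 6692 and 5073 in the TGFB1 libraries. Its 21 KRT7 epithelial cells summed to 63106 UMIs, so that 1 UMI is 15.8 CPM (the UMI count of a gene scaled to a common total for every library), whereas the 182 cells of control replicate 2, and the 716 and 992 cells of TGFB1 replicates 1 and 2, summed to between 1583925 and 5729101 UMIs. Leaving out control replicate 1 kept all 20 genes of largest change past the threshold, with a shift of at most 0.22 on the log2 scale, and 67 of the 68 other list genes that passed, the last of which was then too low to be tested. Counts of genes are given with and without it, and all values over the control group lean on control replicate 2. Any pair of the 4 libraries shared 10 to 34 cell barcodes, at most 0.363% of the smaller library.

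KRT7 is an intermediate filament protein of simple and ductal epithelia, and in the liver it marks bile duct cells and activated progenitors, while EPCAM is an adhesion protein of most simple epithelia. TGF-β ligands bind a pair of serine/threonine kinase receptors that phosphorylate SMAD2 and SMAD3. These join SMAD4 and bind DNA at short motifs, among them CAGAC. In epithelia the pathway is known for growth arrest, for matrix production and for epithelial to mesenchymal transition.

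Promoter sequences are shown for 3 loci that the results below turn on. They are TIMP3, which was among the genes of largest rise, FABP1, which had the largest fall among genes above the abundance minimum of the naming rule, and the interval between the start sites of COL4A1 and COL4A2, head-to-head genes that both rose. Each is the stretch directly upstream of the start site in RefSeq (GRCh38.p14), 5′ to 3′, with matches to CAGAC or its reverse complement GTCTG in capitals. TIMP3 is at chr22:32801455-32801704 on the plus strand, FABP1 at chr2:88128063-88128312 on the minus strand, and the COL4A1 to COL4A2 interval at chr13:110307158-110307283, written on the plus strand.
TIMP3: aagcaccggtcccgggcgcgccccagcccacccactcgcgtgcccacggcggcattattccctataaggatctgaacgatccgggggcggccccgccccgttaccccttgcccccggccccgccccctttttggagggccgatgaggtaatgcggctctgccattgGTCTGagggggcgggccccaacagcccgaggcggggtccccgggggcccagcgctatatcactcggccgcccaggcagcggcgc
FABP1: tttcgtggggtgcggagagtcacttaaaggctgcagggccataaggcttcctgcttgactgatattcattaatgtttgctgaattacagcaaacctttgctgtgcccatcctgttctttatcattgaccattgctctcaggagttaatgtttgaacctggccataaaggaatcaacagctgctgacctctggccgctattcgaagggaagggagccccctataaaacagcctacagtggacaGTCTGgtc
COL4A1-COL4A2: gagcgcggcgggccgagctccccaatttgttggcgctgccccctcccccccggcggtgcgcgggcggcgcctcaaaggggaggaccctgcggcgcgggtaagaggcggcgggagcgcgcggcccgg
The TIMP3 and FABP1 stretches of 250 bases each hold 1 match, and the 126 bases between the collagen genes hold none. Across 27305 genes with a RefSeq entry, 38.0% of 35116 promoter stretches of the same length had a match on either strand, and 42.8% of the genes had one in at least 1 stretch. Among the genes named below, the match was found in 4 of 6 with an entry that rose (DHRS2, S100A2, SLC2A12 and TIMP3) and in 3 of 5 that fell (CEACAM6, FABP1 and TM4SF4). Of the matrix genes that rose it was found in 1 of 6 (TNC), and of the proteases and inhibitors that rose in 2 of 4 (MMP7 and TIMP3). A match describes the letters only.

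KRT7 epithelial cells made up a larger share of the TGFB1 libraries than of the controls. They were 21 of 9615 cells in control replicate 1 (0.218%, exact 95% interval 0.135 to 0.334), 182 of 8505 in control replicate 2 (2.14%, 1.84 to 2.47), 716 of 6002 in TGFB1 replicate 1 (11.9%, 11.1 to 12.8) and 992 of 6904 in TGFB1 replicate 2 (14.4%, 13.5 to 15.2). Both TGFB1 libraries lay above both controls. The means were 1.18% ± 1.36 and 13.1% ± 1.72 (SD, n = 2 each), a difference of 12.0 percentage points, for which the two-sided exact permutation test gave p = 0.333, the smallest value that 2 libraries against 2 allow. Without control replicate 1 the difference was 11 percentage points. The intervals cover counting error only.

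**Figure D1:**
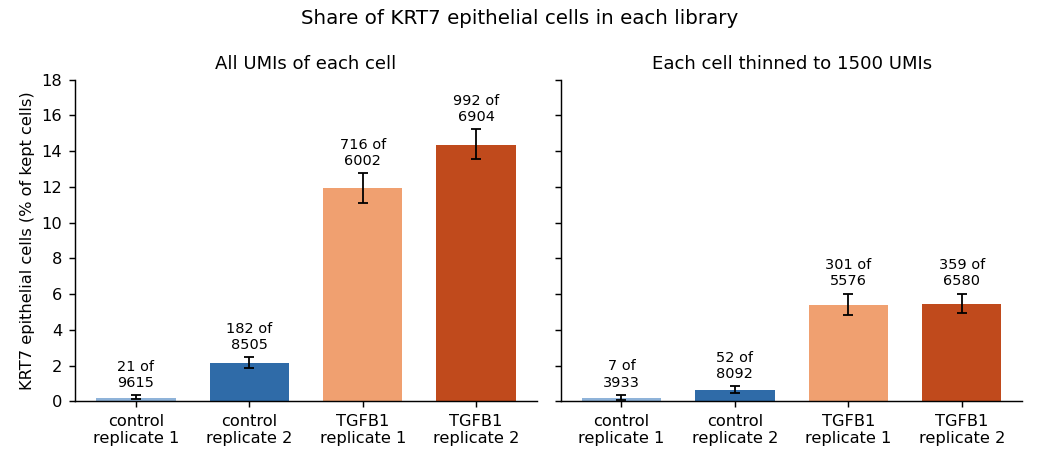
Share of KRT7 epithelial cells in each library, as a percent of all cells that passed the gene and mitochondrial filters (vertical axis from 0), with all UMIs (left) and after every cell was thinned to 1500 UMIs (right). Bars are the 2 control and 2 TGFB1 libraries with their cell counts, and error bars are exact 95% binomial intervals. The TGFB1 libraries reach 11.9% and 14.4% and the controls 0.218% and 2.14%.

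Depth moved the level of the share but not the order of the groups. After each cell was thinned to 1500 UMIs, with shallower cells left out, the share was 0.178% (7 of 3933), 0.643% (52 of 8092), 5.40% (301 of 5576) and 5.46% (359 of 6580) in the same order of libraries. The thinned share differed by 5.02 percentage points between groups (p = 0.333, exact permutation test). The cells also took a larger part of the EPCAM-positive cells alone, with 0.431% and 2.35% in the controls and 14.2% and 16.7% with TGFB1. In collagen-positive cells (at least 3 COL1A2 and COL3A1 UMIs, no EPCAM), which should lack KRT7, at least 2 KRT7 UMIs were seen in 0 of 306 cells of control replicate 1, which allows up to 0.980% by a limit of 3 cells (exact upper bound 1.20%), and in 0.752%, 1.30% and 0.839% of cells in the other libraries. The median depth of those cells was 1397.5, 6697.5, 7015 and 6222.5 UMIs, and that of the KRT7 epithelial cells was 2581, 7726.5, 7311.5 and 5210.

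The hepatocyte gene exclusion removed a larger part of the cells with TGFB1 than without. Of cells with the KRT7 and EPCAM minimum, numbering 32, 503, 3579 and 3446, the hepatocyte gene condition was met by 28.1%, 60.2%, 77.1% and 67.4%. The collagen exclusion removed 9.375%, 7.55%, 18.6% and 9.373%, with overlapping groups. With both exclusions dropped, the share of cells was 0.333%, 5.91%, 59.6% and 49.9%, so the cells described here are the part of a larger KRT7-positive population that is low in both sets of genes. The KRT7 minimum of 2 UMIs cuts through a continuous range. Among epithelial cells that met the other conditions, 101, 260, 150 and 329 had 1 KRT7 UMI and lay just outside, and 11, 63, 117 and 228 had 2 and lay just inside. The median KRT7 count of the members was 2, 3, 6 and 4 UMIs. In the other 15 libraries of the series the same rule found 894 cells, between 0.139% and 5.15% of a library with a median of 0.770%.

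The label fits the marker genes as far as simple epithelium goes. Cells were thinned to 1500 UMIs, and a list was scored as reached when at least 2 different genes of it had a UMI. The simple keratin list, without KRT7, was reached in 88.9%, 96.2%, 98.3% and 96.5% of KRT7 epithelial cells (controls 1 and 2, then TGFB1 1 and 2). The list of 30 biliary and ductal genes was reached in 99.6% to 100%. The second list separates little within the epithelium, since 96.6% to 100% of KRT7-negative epithelial cells (the same conditions but 0 KRT7 UMIs) also reached it, against 32.0% to 52.9% of collagen-positive cells. The endothelial list was reached in no KRT7 epithelial cell after thinning, with CDH5, TIE1 and CLDN5 at 0. The immune list was reached in at most 0.549%, with PTPRC and CD14 at 0. The rule was set on KRT7, EPCAM and the excluded genes, so these values describe the cells and test nothing.

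Markers of other epithelia appeared in minorities of the cells. The values are shares of cells with no test between groups, and those of control replicate 1 rest on 18 cells, so that 5.56% is 1 cell and 11.1% is 2. At least 2 genes of the basal and squamous list had a UMI in 5.56% and 3.85% of control and 10.4% and 8.77% of TGFB1 cells after thinning. Gut epithelial genes did so in 11.1% and 18.7% of control and 3.81% and 3.98% of TGFB1 cells, and gastric and foregut genes in 5.56% and 2.75% against 0.141% and 0.408%. For hepatocyte genes the shares were 11.1%, 8.79%, 3.67% and 6.01%, and for amnion and trophoblast genes 22.2%, 5.49%, 6.49% and 7.65%. Without thinning the shares were larger in the deeper libraries. They reached 58.8% for gut and 51.1% for hepatocyte genes in control replicate 2. In TGFB1 replicate 1 they reached 49.3% for basal and squamous and 41.1% for amnion and trophoblast genes. The alpha-1 antitrypsin gene SERPINA1, one of the exclusion genes, was still present in 81.0% to 98.9% of the members at 982, 1227, 1706 and 1746 CPM, against 3709 to 7235 CPM in the cells the hepatocyte condition removed.

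**Figure D2:**
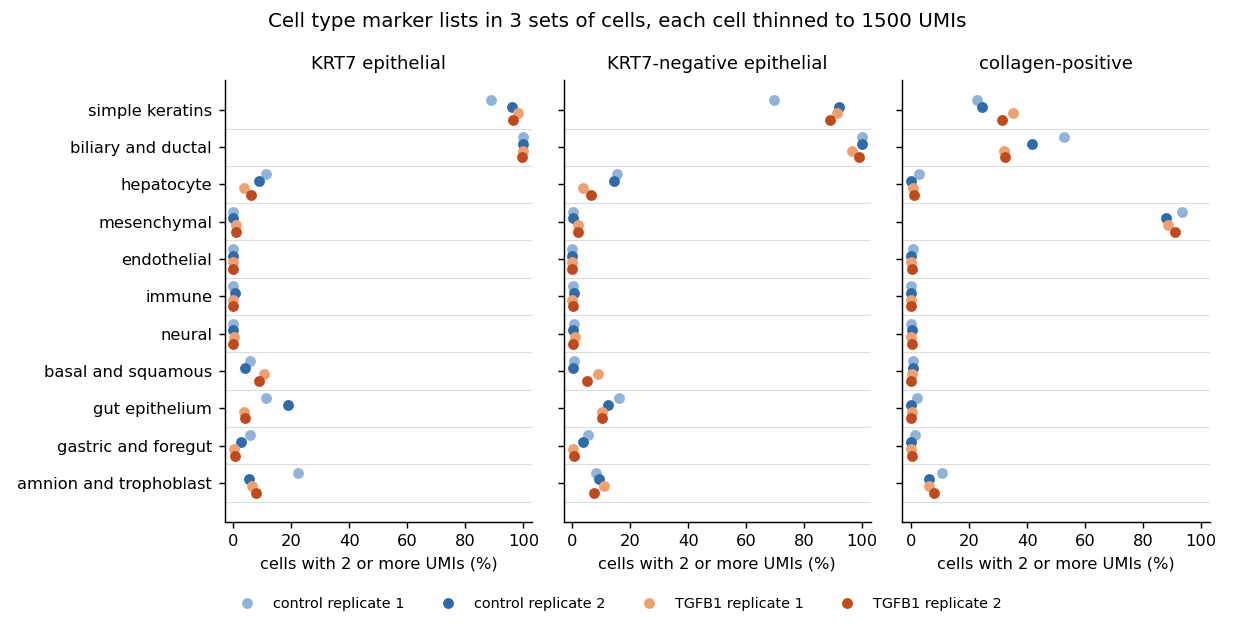
Percent of cells with a UMI of at least 2 different genes of each marker list (horizontal axis), by library. Cells were thinned to 1500 UMIs and are KRT7 epithelial, KRT7-negative epithelial or collagen-positive. The axis label reads 2 or more UMIs, but genes with a UMI were counted. Keratin and biliary lists lie near 100% in the KRT7 cells, and the mesenchymal list lies at 0% to 0.846% there and at 87.8% to 93.6% in collagen-positive cells.

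The non-coding RNA MALAT1 was the most abundant transcript of the KRT7 cells. Ranked by mean CPM over the libraries outside mitochondrial and ribosomal protein genes, the first 20 were MALAT1, TMSB4X, FTL, TMSB10, S100A11, S100A6, FTH1, EEF1A1, TPT1, SPINK1, VIM, IGFBP2, ACTB, PTMA, ACTG1, GSTP1, H3F3A, S100A10, FN1 and KRT8. These are 3′ tag counts, which are not scaled by transcript length. S100A6, a calcium-binding protein, stood at 6529 and 3630 CPM in control and 3472 and 4467 CPM in TGFB1 KRT7 cells, above the 1724, 1030, 1876 and 2965 CPM of the KRT7-negative cells in each library. The difference was widest in the controls for 2 genes linked to mesenchymal change. VIM, the filament protein vimentin, was at 2456 and 3611 CPM in control KRT7 cells against 516 and 930 in control KRT7-negative cells, but at 5563 and 4745 against 4626 and 4400 with TGFB1. FN1, fibronectin, was at 1600 and 1031 CPM against 281 and 200 in the controls, and at 3632 and 4001 against 2169 and 2415 with TGFB1. SPINK1, a secreted trypsin inhibitor, was lower in control KRT7 cells (5419 and 5671 CPM) than in control KRT7-negative cells (13125 and 7282 CPM), and close to them with TGFB1.

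Within the KRT7 epithelial cells, 8 extracellular matrix genes and 7 matrix proteases and inhibitors were higher with TGFB1, and 7 cell cycle genes, 4 gastric and foregut genes and 3 gut genes were lower. The cells of a library were pooled into 1 summed profile, and these profiles were tested with edgeR. Of 11698 genes tested, 562 passed an adjusted p of 0.05 (4.8%), 275 higher (2.35%) and 287 lower (2.45%). The median log2 fold change of all genes was 0.03, and 52.5% were positive. DESeq2 called 39 genes on the same sums, all among the 562. Without control replicate 1, edgeR called 907 genes, 554 of them shared, and without control replicate 2, which leaves 21 control cells, it called 494, 92 of them shared with 60 of the 562 reversed in sign. In counts simulated at the depth of these libraries, 0% of genes changed by 1 log2 unit were recovered. For changes of 2 and 3 log2 units the values were 36.5% and 87.1%. The simulation gave every gene the same fixed dispersion, so these rates need not hold for the data. A gene that missed the threshold is not shown to be unchanged. Without control replicate 2 the median log2 fold change of all genes was 0.72, against 0.03 with all libraries. Changes given below without control replicate 2 are not corrected for that upward shift.

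The largest rise that met the naming rule was in NKAIN4, a membrane protein that interacts with the sodium pump beta subunit (chr20:63240784-63272694, minus strand). It stood at 0 and 8.84 CPM in the controls and 222 and 176 CPM with TGFB1 (log2 fold change 4.59, SE 0.42, edgeR adjusted p = 4.8e-24). It was detected in 64.1% and 51.7% of TGFB1 cells and in 0% and 3.85% of control cells, without thinning. MMP2, the gelatinase A gene (chr16:55389700-55506691), followed with 0 and 6.31 CPM against 81.3 and 89.0 CPM (3.85, SE 0.42, edgeR adjusted p = 5.4e-17). Control replicate 1 held no UMI of either gene, so without control replicate 2 the fitted changes of 12.57 for NKAIN4 and 11.35 for MMP2 depend on the prior count and measure no size. The naming rule asked that both TGFB1 libraries lie beyond both controls, so the separation of the groups in these genes is given by the choice. The filter on low counts asked that a level be reached in 2 libraries. NKAIN4, MMP2, TIMP3 and DHRS2 had no UMI in control replicate 1, so they needed a treated library to enter the test.

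COL1A1, the major fibrillar collagen chain (chr17:50184101-50201632, minus strand), was not part of the cell rule. It measured 79.2 and 31.6 CPM in control and 376 and 476 CPM in TGFB1 KRT7 cells (log2 fold change 3.63, SE 0.47, edgeR adjusted p = 2.3e-12). After thinning, a COL1A1 UMI was found in 0%, 1.10%, 33.0% and 37.8% of the cells. Levels in KRT7-negative cells were 35.6, 17.4, 332 and 428 CPM, and those in collagen-positive cells were 4695, 4104, 4203 and 4423 CPM. The summed level of the 16 mesenchymal markers in KRT7 cells was 127 and 48 CPM in the controls and 401 and 498 CPM with TGFB1, with TCF21 and DES at 0, against 6625 to 7606 CPM in collagen-positive cells. COL1A1 made up most of these sums: the other 15 markers together stood at 47.5 and 16.4 CPM in the controls and 25.0 and 22.2 CPM with TGFB1. Of that list, COL1A1 was the only one of 2 tested genes that passed. Without control replicate 2 its log2 fold change was 2.90. The part of free RNA from other cells in these levels was not tested.

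The other genes of largest rise were of mixed function. MXRA5, a matrix-remodelling associated protein, was at 15.8 and 3.16 CPM in the controls and 42.1 and 51.8 CPM with TGFB1 (log2 fold change 3.70, edgeR adjusted p = 2.3e-11). FHOD3, a formin that assembles actin, was at 15.8 and 13.9 against 113 and 128 CPM (3.15, 1.4e-15). TIMP3, the matrix-bound metalloprotease inhibitor whose promoter is printed above, was at 0 and 13.9 against 132 and 88.7 CPM (3.09, 4.7e-15). All 3 lay above both controls in both treated libraries. S100A2, a calcium-binding protein of basal epithelia, was at 15.8 and 17.7 against 132 and 123 CPM (2.90, 2.3e-14). GAL, the neuropeptide galanin, was at 95.1 and 24.0 against 249.9 and 210.3 CPM (3.06, 3.0e-13). The remaining pair were the sugar transporter SLC2A12 (3.09, 1.9e-09) and the dehydrogenase DHRS2 (3.36, 6.7e-10), both from a low control level of at most 15.8 CPM. MXRA5 (2.04), DHRS2 (10.35) and SLC2A12 (2.00) no longer passed without control replicate 2, GAL still did at 1.75 and TIMP3 at 11.72, where the values of DHRS2 and TIMP3 rest on 0 control UMIs, and DESeq2 did not call DHRS2 and SLC2A12.

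FABP1, the liver and intestinal fatty acid binding protein (chr2:88122982-88128062, minus strand), had the largest fall among genes that met the naming rule, which asks for an average log2 CPM of at least 5. It was at 127 and 143 CPM in the controls and 1.24 and 6.11 CPM with TGFB1 (log2 fold change -5.17, SE 0.30, edgeR adjusted p = 5.8e-63). With any 1 of the 4 libraries left out, its change was -6.59 to -4.34. A FABP1 UMI was found in 4.76% and 18.7% of control cells and in 0.838% and 1.01% of TGFB1 cells, without thinning. In control replicate 1, with 21 cells, 4.76% is 1 cell, which held all 8 UMIs. The change without control replicate 2 (-4.62) rests on that cell. FABP1, at 1.24 CPM in TGFB1 replicate 1, needed a control library to enter the test. TFF3, a trefoil peptide of mucous epithelia, was at 15.8 and 108 against 4.44 and 7.68 CPM (-3.96, 6.8e-39), and GC, the plasma vitamin D binding protein made by hepatocytes, at 206 and 101 against 4.09 and 13.3 CPM (-3.61, 2.0e-34). TM4SF4, a tetraspanin relative of gut and liver epithelium, was at 158 and 212 against 25.0 and 24.1 CPM (-2.97, 1.2e-31). CEACAM6, an adhesion molecule of gut epithelia, was at 127 and 128 against 20.4 and 14 CPM (-2.82, 1.5e-25). The secreted products LYZ (lysozyme, -2.32), CLU (clusterin, -2.30) and the peptide hormone gene NPW (-2.19) also fell, as did IGF2 (-2.87), a growth factor that the count tables list under 2 gene entries, which leaves its count uncertain. CCL20, a chemokine that draws CCR6-bearing lymphocytes, was at 649.7 and 483 against 139 and 70.2 CPM (-2.19, 2.1e-08). Leaving out control replicate 2 ended the call of TFF3, LYZ and NPW, whose changes were then -0.91, -1.21 and -0.15, and moved TM4SF4 to -2.21. GC was at -4.81 without TGFB1 replicate 2. Without TGFB1 replicate 1, CCL20, CLU, LYZ and NPW did not pass, and without TGFB1 replicate 2 neither these nor CEACAM6 and TM4SF4 did.

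**Figure D3:**
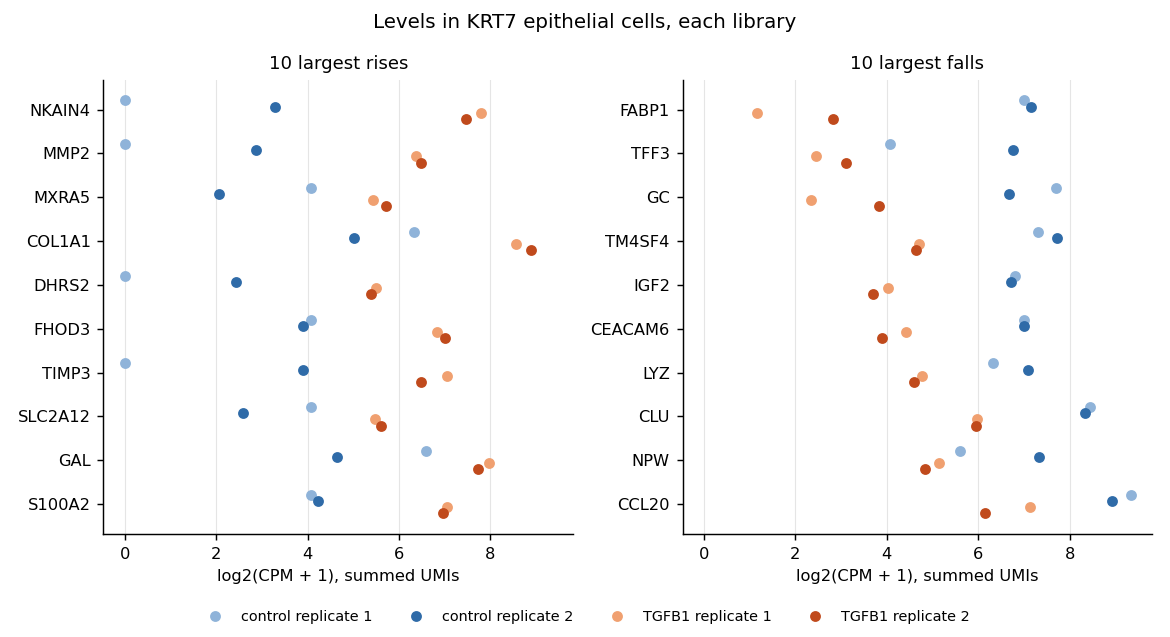
Level of the 10 genes of largest rise and the 10 of largest fall in KRT7 epithelial cells, as log2(CPM + 1) (horizontal axis), for each control and TGFB1 library. Points of the TGFB1 libraries lie beyond both controls in each gene, as the naming rule requires, and FABP1 falls from 127 and 143 to 1.24 and 6.11 CPM.

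Among 25 tested genes known as targets or feedback regulators of TGF-β, 6 rose and 1 fell, beside 2.35% and 2.45% of all genes, with a median log2 fold change of 0.51. The ones that rose were TGFBI, LTBP2, LDLRAD4, TIMP3, CDKN2B and CDKN1A, and MYC fell. TGFBI, a secreted matrix adhesion protein, was at 31.7 and 41.0 CPM in the controls and 136 and 157 with TGFB1 (1.90, edgeR adjusted p = 8.0e-08). LTBP2 and LDLRAD4, an ECM protein and a receptor-pathway inhibitor, had 1 UMI each in all control cells, against 165 and 120 with TGFB1, ratios of 23.9 (95% counting interval 4.23 to 951) and 17.4 (3.06 to 693). Both entered the test only through the treated libraries, so they had to differ. SMAD7, an inhibitory SMAD and a classical target, did not pass in edgeR (143, 21.5, 29.7 and 39.3 CPM, 0.33, adjusted p = 0.76), and its groups overlapped. PMEPA1, a feedback inhibitor, lay higher in both TGFB1 libraries (444, 411, 750 and 708 CPM, 0.96) but missed the threshold (edgeR adjusted p = 0.29), and passed without control replicate 1 (adjusted p = 0.0017). Of the 7 calls, TIMP3 alone held with each library left out in turn, and TGFBI (2.68), TIMP3 and CDKN2B (1.78) held without control replicate 2.

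Of 16 tested ligand, receptor and activator genes, 2 rose and none fell, beside 2.35% and 2.45% of all genes. TGFBR1, the type I receptor kinase, was at 79.2 and 45.5 CPM in the controls and 113 and 104 CPM with TGFB1 (1.24, edgeR adjusted p = 9.0e-04). ITGB6, whose integrin activates latent TGF-β, was at 317 and 111 against 308 and 304 CPM (1.15, adjusted p = 0.044 in edgeR), so control replicate 1 lay above both treated libraries. Neither passed without control replicate 2 (0.93 and 0.42).

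Matrix genes lay on the positive side. All 22 tested genes of the extracellular matrix list had positive log2 fold changes, against 52.5% of all genes, with a median of 0.69, and 8 rose, beside 2.35% of all genes: COL1A1, COL4A1, COL4A2, COL5A1, COL5A2, FN1, SPARC and TNC. SPARC, a collagen-binding glycoprotein, was at 0 and 14.5 CPM in the controls and 94.7 and 96.9 with TGFB1 (2.83, SE 0.35, edgeR adjusted p = 5.4e-13). The basement membrane chains COL4A1 (31.7 and 40.4 against 128 and 112 CPM, 1.64) and COL4A2 (127 and 68.8 against 146 and 149 CPM, 1.06), which share the interval printed above, rose together. FN1 rose too (1.81, SE 0.55, edgeR adjusted p = 0.028). COL1A1 and SPARC held with each library left out, COL4A1 (2.39) and FN1 (1.73) also held without control replicate 2, and the other 4 did not hold without it. These values without control replicate 2 stand beside a median of 0.72 for all genes in that fit. SPARC, at 0 CPM in control replicate 1, needed a treated library to enter the test. Of 19 tested integrin and laminin genes, ITGA3 and ITGB6 rose.

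Matrix proteases and their inhibitors rose in 7 of 17 tested genes and fell in 2, beside 2.35% and 2.45% of all genes, with a median of 1.09. Beside MMP2 and TIMP3, the matrilysin gene MMP7 was at 127 and 203 CPM in the controls and 655 and 328 with TGFB1 (1.53, edgeR adjusted p = 0.0071), and SERPINE2, a serine protease inhibitor, at 63.4 and 44.2 against 140 and 141 CPM (1.68, 2.8e-06). PLAT, ADAM19 and ADAMTS1 rose as well. MMP10, the stromelysin 2 gene, fell from 95.1 and 24.6 to 7.46 and 4.89 CPM (-2.17, 1.1e-06), and MMP1 fell by 1.71. MMP2, TIMP3 and MMP10 held with each library left out, and without control replicate 2 MMP7 held at 2.43 and MMP10 at -3.47.

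Junction and transition genes mostly missed the threshold. Of 25 tested, the placental cadherin CDH3 alone rose (63.4 and 41.0 against 83.5 and 95.7 CPM, 1.13, edgeR adjusted p = 0.0036), beside 2.35% of all genes, but not without control replicate 2, and the list's median was 0.08. The E-cadherin gene CDH1 was at 507, 270.2, 389 and 364 CPM (0.31, adjusted p = 0.83), with overlapping groups. VIM was higher in both TGFB1 libraries but did not pass (0.93, SE 0.56, edgeR adjusted p = 0.50). The transition regulators SNAI2 (31.7, 4.42, 11.4 and 8.73 CPM) and ZEB1 (15.8, 2.53, 3.73 and 2.44 CPM) were low in all libraries, with overlapping groups. Of 16 contractile and YAP target genes, tropomyosin TPM1 rose and CNN1 and AJUBA fell, beside 2.35% and 2.45% of all genes, and TPM1 alone of these held without control replicate 2. TAGLN, an actin-binding protein used as a smooth muscle and TGF-β marker, was at 745 and 1113 CPM in the controls and 1128 and 776 with TGFB1 (0.16, edgeR adjusted p = 0.95).

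Proliferation genes were lower with TGFB1. Of 15 tested cell cycle genes, 7 fell, beside 2.45% of all genes, and none had a positive change, beside 52.5%, with a median of -1.92. MKI67, the Ki-67 antigen, was at 63.4 and 26.5 CPM in the controls and 3.20 and 0.175 with TGFB1 (-4.03, SE 0.47, edgeR adjusted p = 2.9e-15). TOP2A, the mitotic topoisomerase, fell likewise (63.4 and 33.5 against 3.02 and 1.22 CPM, -3.99). Both held with each library left out, with a change of -6.95 for MKI67 without TGFB1 replicate 1 and -3.11 without TGFB1 replicate 2. The -6.95 is set against 0.175 CPM in TGFB1 replicate 2, so it is no measure of size. After thinning, at least 2 cell cycle genes had a UMI in 5.56% and 6.59% of control and 1.83% and 1.12% of TGFB1 cells. In control replicate 1 that is 1 of 18 cells, so the changes without control replicate 2 may rest on 1 cell. In KRT7-negative epithelial cells 19 of 20 tested cell cycle genes fell, beside 4.55% of all genes there, with a median of -2.74. The fall was thus not particular to the KRT7 cells, to which the calls below refer. Without control replicate 2, CCNB2 and UBE2C did not pass, and CDK1, AURKB and BIRC5 were too low to be tested. These 3 entered the test through the control libraries and could only fall. The count of 7 and the lack of positive changes are thus partly set by the filter. MKI67 and TOP2A, at 0.175 and 1.22 CPM in TGFB1 replicate 2, also needed a control library to enter the test. Of 11 growth arrest genes 4 rose, beside 2.35% of all genes, the kinase inhibitors CDKN1A, CDKN2A and CDKN2B and the stress gene GADD45B. CDKN2B, a cytostatic TGF-β target, was at 158 and 146 CPM in the controls and 388 and 398 with TGFB1 (1.52, SE 0.39, edgeR adjusted p = 0.0043). CDKN2A was at 31.7 and 51.1 against 117 and 112 CPM (1.25, 6.1e-04). CDKN2B (1.78) and GADD45B (4.17) held without control replicate 2, where CDKN2A was at 2.32 and did not pass, while no call of this list held with each library left out.

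Biliary and ductal genes leaned lower. Of 25 tested, 8 fell (CFTR, ONECUT1, DCDC2, MUC1, SCTR, FXYD2, TSPAN8 and KLF5), beside 2.45% of all genes, with a median of -0.38. ONECUT1, a transcription factor of liver and bile duct development, was at 31.7 and 70.1 CPM in the controls and 7.46 and 9.43 with TGFB1 (-2.93, SE 0.29, edgeR adjusted p = 1.1e-20). The chloride channel gene CFTR fell by 1.20 and the mucin MUC1 by 2.07. Duct markers in wide use did not pass in edgeR and their groups overlapped: SOX9 at 254, 107, 129 and 159.9 CPM (0.30), SPP1 at 238, 497, 342 and 457 CPM (0.10), and KRT19 at 1046, 1871, 2250 and 1576 CPM (0.51, adjusted p = 0.76). Of 19 developmental liver and bile duct factors, FOXA2, FOXA3, HHEX and ONECUT1 fell. None of these 8 biliary calls nor the 4 factor calls held without control replicate 2, where CFTR, DCDC2, FXYD2 and TSPAN8 changed sign and ONECUT1 was at -1.43.

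Several foregut and gut genes fell and 4 basal genes rose. Of 9 tested gut genes FABP1, TFF3 and OLFM4 fell, and of 6 tested gastric and foregut genes TFF1, TFF2, PDX1 and NKX6-2 fell, beside 2.45% of all genes, none in either list rising. TFF2, a gastric trefoil peptide, had 105 UMIs in control cells and 1 in TGFB1 cells, a ratio of TGFB1 to control of 0.00138 (95% counting interval 3.46e-05 to 0.00786). NKX6-2, a homeobox factor, was at 47.5 and 25.9 CPM in the controls and 2.13 and 0.873 with TGFB1 (-4.10, edgeR adjusted p = 7.6e-15). OLFM4, TFF1 and PDX1 changed sign without control replicate 2, where TFF2 was too low to be tested. TFF2 and NKX6-2 entered the test only through the control libraries and could only fall. The count of 4 gastric and foregut genes and the lack of rises are thus partly set by the filter. Of 10 tested basal and squamous genes, S100A2, SFN, KRT6B and TP63 rose, beside 2.35% of all genes, and none fell. TP63, the regulator of basal cells, had no UMI in the 203 control cells and 145 with TGFB1, at least 7.01-fold higher against a floor of 3 UMIs over the control group. KRT6B had 3 UMIs in control cells, a ratio of 8.36 (2.81 to 40.9). S100A2 held with each library left out and SFN without control replicate 2. The other 16 basal genes were too low to be tested, and a gene that passed the filter only through the treated libraries had to differ.

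Inflammatory genes divided. Of 18 tested, CXCL6, SAA1 and SAA2 rose and CXCL2, CXCL5, CCL20 and ICAM1 fell, beside 2.35% and 2.45% of all genes, with a median of -0.05. CXCL6, a neutrophil chemokine, was at 79.2 and 150 CPM in the controls and 298 and 256 with TGFB1 (1.10, edgeR adjusted p = 0.032). ICAM1, a leukocyte adhesion molecule, was at 206 and 72.6 against 28.1 and 22.7 CPM (-1.66, 7.8e-08). The acute phase gene SAA1 had no UMI in control cells and 53 with TGFB1, at least 2.56-fold higher, and SAA2 had 1 and 70. Both entered the test only through the treated libraries and had to differ, which leaves CXCL6 as the other rise. CXCL6 (2.28), CCL20 (-2.16) and ICAM1 (-2.55) held without control replicate 2. The remaining lists held few calls: APOA2 and VTN fell among 6 tested hepatocyte genes, GATA3 (2 control UMIs and 93 with TGFB1, so that it had to differ once tested) and HEY1 rose among 6 amnion and trophoblast genes, KRT23 fell among 5 simple keratins, TRIB3 fell among 15 unfolded protein response genes, and LYZ fell among 2 immune genes. None of the 4 neural, endothelial and pluripotency genes tested passed. Without control replicate 2, TRIB3 alone of these held and GATA3 changed sign.

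**Figure D4:**
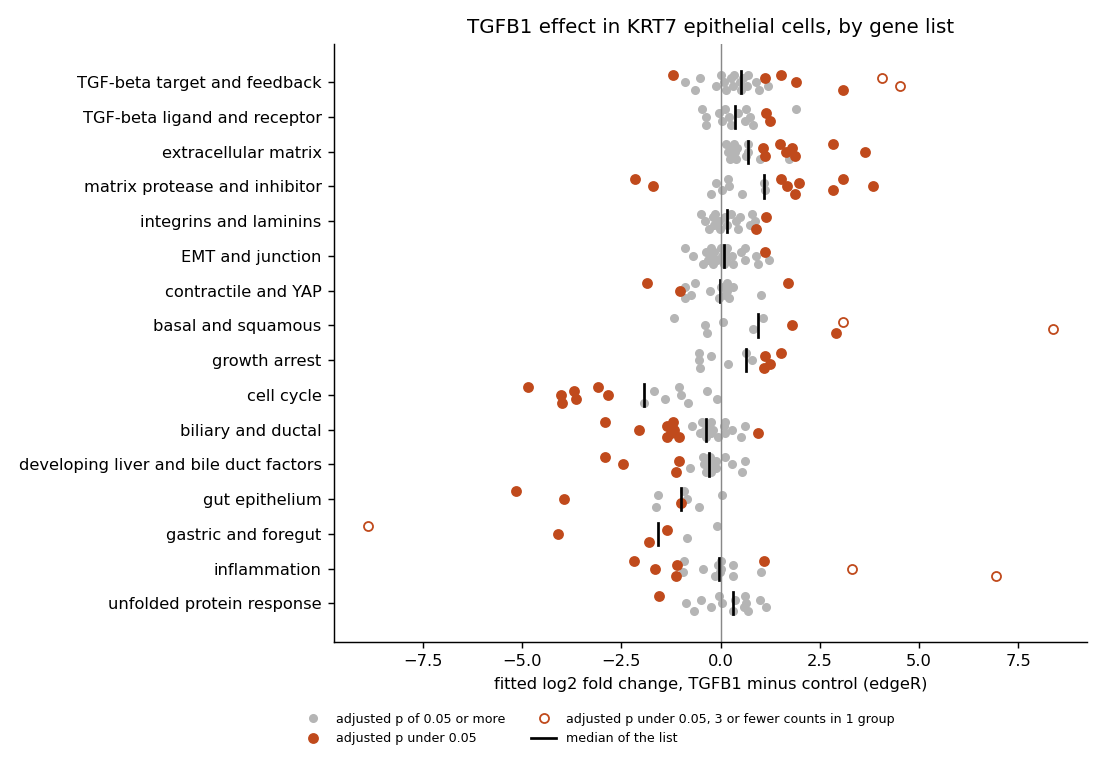
Fitted log2 fold change (TGFB1 against control, horizontal axis) of each tested gene of 16 gene lists in KRT7 epithelial cells. Filled points passed the edgeR threshold, open points passed with 3 or fewer UMIs in 1 group so that their position is no measure of size, grey points did not pass, and bars are list medians. All 22 extracellular matrix genes lie above 0 and none of the 15 cell cycle genes does.

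The same comparison was made in the 7000 KRT7-negative epithelial cells of these libraries (3391, 2833, 262 and 514 cells), and the difference between the effects was tested with the library as a block. In KRT7-negative cells 1265 of 12688 genes passed (9.97%), 688 higher (5.42%) and 577 lower (4.55%). The effects differed for 913 of 13009 genes (7.02%), 318 with a larger rise or smaller fall in KRT7 cells (2.44%) and 595 the other way (4.57%). Without control replicate 1, 1249 genes differed. The direction turned without control replicate 2, where 293 genes differed, 213 higher and 80 lower, with 128 shared and 140 of the 913 reversed in sign. Leaving out TGFB1 replicates 1 and 2 in turn gave 240 and 164. In the fit with no library block 53 differed, all with the lower effect in KRT7 cells.

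In TNC, PLAU and TAGLN the effect was lower in KRT7 cells and the control level was higher there. TNC, the matrix glycoprotein tenascin C, was at 206 and 75.1 CPM in control KRT7 cells and 246 and 241 with TGFB1, but went from 10.0 and 5.75 to 254 and 335 CPM in KRT7-negative cells (difference of log2 effects -4.0, SE 0.24, edgeR adjusted p = 1.3e-58). The urokinase gene PLAU was at 127, 90.9, 115 and 69.5 CPM in KRT7 cells and at 6.40, 2.32, 60.3 and 52 in KRT7-negative cells (-4.28, SE 0.26, edgeR adjusted p = 6.7e-56). TAGLN was at 34.0 and 52.7 CPM in control KRT7-negative cells and 578 and 439 with TGFB1, against 745 to 1128 CPM in KRT7 cells (-3.40, edgeR adjusted p = 1.1e-71). In these 3 genes the treated levels of both cell sets were of the same order. The KRT7 minimum alone was met by 0.426% and 5.97% of control cells and by 60.0% and 50.4% of TGFB1 cells, and the part of that choice in the differences was not tested.

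Counted over lists, the effect was lower in KRT7 cells for 14 of 18 inflammation genes, 12 of 16 unfolded protein response genes, 11 of 17 proteases and inhibitors, 10 of 19 integrins and laminins, 8 of 25 TGF-β targets and 8 of 23 matrix genes, and higher for none of these, beside the 4.57% and 2.44% of all genes. Other lists held higher effects in KRT7 cells: 3 of 20 cell cycle genes (TYMS, MCM3 and PCNA) with none lower, 3 of 9 hepatocyte genes (APOA1, TTR and VTN) with 1 lower, 3 of 26 biliary and ductal genes (ANXA4, FXYD2 and HES1) with 3 lower, and 2 of 11 growth arrest genes (CDKN1C and BTG2) with 4 lower. PMEPA1 rose from 136 and 144 to 588 and 558 CPM in KRT7-negative cells (difference -1.10, SE 0.17, in edgeR). FABP1 went from 196 and 111 to 38.3 and 48.2 CPM there (difference -3.72, SE 0.27, edgeR adjusted p = 4.3e-41). The effects on COL4A1, COL4A2, MKI67 and ONECUT1 did not differ past the threshold (differences 0.07, 0.16, -0.67 and 0.03). Over the same span the median depth of KRT7 epithelial cells was 2581 UMIs in control replicate 1 and 5210 to 7726.5 elsewhere, and its part in the differences was not tested.

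**Figure D5:**
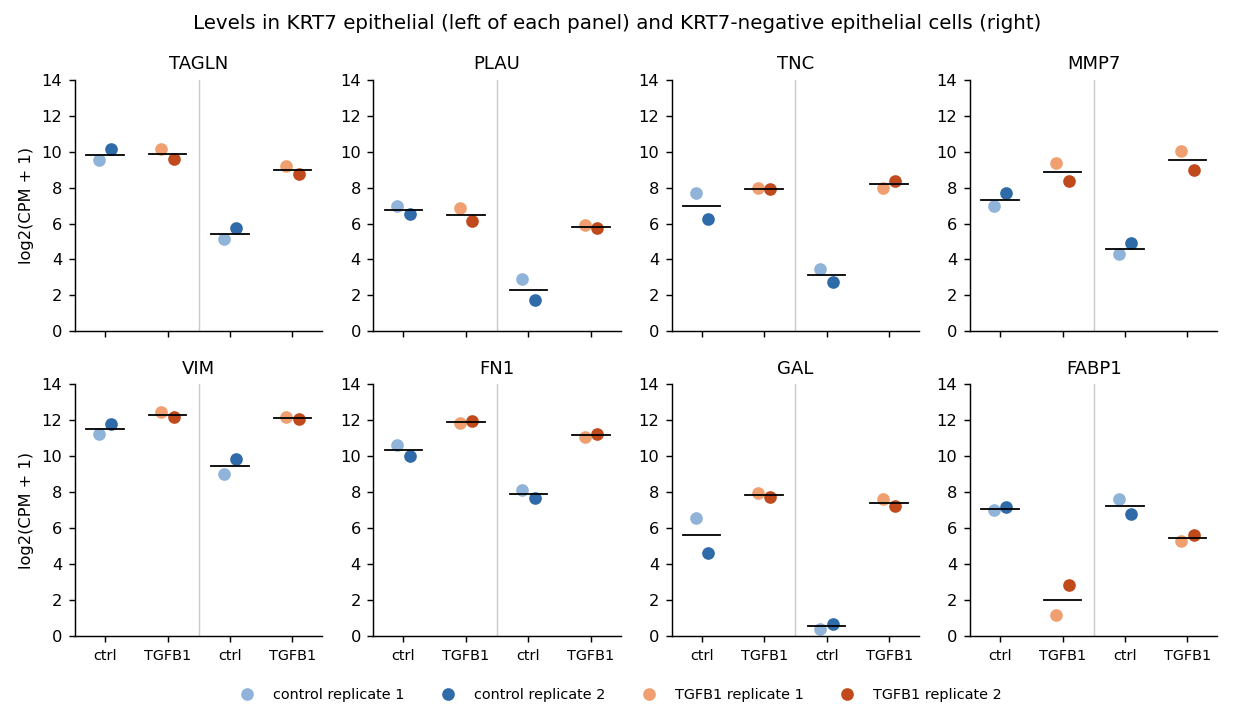
Level of 8 genes, as log2(CPM + 1), in KRT7 epithelial cells (left of each panel) and KRT7-negative epithelial cells (right), where each point is a library and each bar a group mean. TAGLN, PLAU and TNC are lowest in the control KRT7-negative cells, and FABP1 is lowest in TGFB1-treated KRT7 cells.

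Against collagen-positive cells (1554 cells), the effect differed for 290 of 12287 genes (2.36%), 177 higher in KRT7 cells (1.44%) and 113 lower (0.92%). COL1A1 (difference 3.54, SE 0.31, edgeR adjusted p = 2.4e-24) and MMP2 (4.05, SE 0.37, edgeR adjusted p = 4.0e-22) rose in KRT7 cells from low control levels, whereas collagen-positive cells held MMP2 at 233, 281, 235 and 231 CPM. Those cells were chosen on 2 collagen genes, so their collagen level is a description. Of 24 matrix genes, 8 had a higher effect in KRT7 cells and none a lower one. The lower effects lay in 5 of 19 inflammation genes, 5 of 20 cell cycle genes and 4 of 16 unfolded protein response genes, with none higher in these lists. The count was 132 genes without control replicate 2, 113 higher and 19 lower, with 44 shared and 19 of the 290 reversed in sign, and MMP2 no longer passed (10.6, against 0 control UMIs). Without TGFB1 replicates 1 and 2, 55 and 27 differed, and 13 did in the fit with no library block.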

How the data were processed

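Single-cell RNA-seq of human liver organoids was taken as the UMI counts per gene and barcode that the authors deposited for each library. The matrix headers give software version 3.0.2, and the submitters' processing notes name Cell Ranger 3.0.2, bcl2fastq, Scanpy and GRCh38. How barcodes were chosen as cells is not given in the sources used here. Cells, gene lists and tests were chosen with earlier results of these data known.

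Cells needed at least 500 genes and at most 20% mitochondrial counts. Doublets were not removed from the reported values (scrublet's automatic cut-off marked 0 cells in the 4 libraries). Libraries were the replicates: counts were summed per library and cell set and tested with edgeR 4.0.16 (quasi-likelihood, TMM, filterByExpr, Benjamini-Hochberg over all genes, threshold 0.05) in R 4.3.3, without a replicate block. Differences between cell sets used the interaction with the library as a block. CPM are UMI counts scaled to the sum over the cells of a set in a library. Named genes were the 10 with the largest rise and the 10 with the largest fall among those past the threshold, with an average log2 CPM of at least 5, both TGFB1 libraries beyond both controls, and no rule gene or LINC or clone name; and, for differences, the 5 largest each way, beside the members of 24 gene lists. The 9 genes of the cell rule stayed in the fits and are not reported as results.

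Total UMIs per library were 17137690, 52928255, 44564226 and 39598393 (controls, then TGFB1). Alternatives were DESeq2 1.42.0, its size factors, no expression filter, a replicate block, other cell cut-offs and each library left out. Intervals of shares are exact binomial at 95%. Coordinates of genes are from GENCODE (33113 of 33538 genes matched) on GRCh38. The fits were tested on simulated counts with the same fixed dispersion for every gene. Some items are not reported here.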

Additional observations from a re-analysis of the deposited data

Results flagged for a closer look

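For 20 genes the TGFB1 effect differed between KRT7 epithelial cells and another cell set by the edgeR interaction test. They are the 5 largest each way in each comparison, and values are differences of log2 fold changes.

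Against KRT7-negative epithelial cells, the higher effects in KRT7 cells were in CHGA (3.46), FRMD4A (2.21), SCGN (1.93), JARID2 (1.87) and FGFR3 (1.79). CHGA, the granin of endocrine cells, had 0, 1, 375 and 3 UMIs over the 4 libraries (controls, then TGFB1), with a UMI in 0.279% of cells of TGFB1 replicate 1, so the value rests on a few cells of 1 library. Without that library the CHGA difference was -1.77. FGFR3, a fibroblast growth factor receptor, still differed with any 1 library left out, at 3.64 without control replicate 2. There CHGA (8.39), FRMD4A (1.37), SCGN (9.5) and JARID2 (2.36) no longer passed, where CHGA and SCGN had no control UMI, and none of the 5 passed without the library block.

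The lower effects were in GAL (-5.27), PLAU (-4.28), TRBC2 (-4.18), TNC (-4.0) and FABP1 (-3.72). GAL was at 0.328 and 0.611 CPM in control KRT7-negative cells and 193 and 147 CPM with TGFB1, and at 95.1, 24.0, 249.9 and 210.3 CPM in KRT7 cells. FABP1 was found in 4.76% and 18.7% of control KRT7 cells, the first being 1 of 21 cells. GAL, PLAU, TNC and FABP1 passed with any 1 library left out, and TRBC2 did not pass without control replicate 2.

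Against collagen-positive cells, the higher effects were in CXCL14 (9.21), MMP2 (4.05), MXRA5 (3.68), COL1A1 (3.54) and PAPPA (3.42). CXCL14, a chemokine, had no UMI in control KRT7 cells and 198 with TGFB1, at least 9.57-fold higher against a floor of 3 UMIs over the group, so its fitted difference is no measure of size. It was found in 5.03% and 3.53% of TGFB1 cells. PAPPA had 1 control UMI (ratio 12.8, 95% counting interval 2.23 to 510). The lower effects were in CENPF (-2.90), CCL20 (-2.55), APOA2 (-2.52), CLU (-1.93) and IGF2 (-1.92). Without control replicate 2, COL1A1, CENPF and CCL20 were the 3 of these 10 that passed. The differences of the others were then 8.56 for CXCL14, 10.6 for MMP2 and 7.41 for PAPPA, all against 0 control UMIs in KRT7 cells, 1.86 for MXRA5, 0.51 for APOA2, -0.38 for CLU and -1.22 for IGF2. With no library block, CXCL14, PAPPA, CCL20, APOA2, CLU and IGF2 did not pass. Without TGFB1 replicate 1, PAPPA, CLU and IGF2 did not pass, and without TGFB1 replicate 2 neither these nor APOA2 did.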

How the results depend on the processing

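The share of KRT7 epithelial cells stayed higher with TGFB1 under all 13 other settings run, at the smallest exact p that the design allows. The count of genes changed in KRT7 cells (562) was 39 with DESeq2, where 3629 genes had no adjusted p, 42 with no filter on low counts (35.7% of them higher, against 48.9%), 912 with at least 1 KRT7 UMI, and 1777 with both exclusions dropped, an alternative chosen after seeing the data that shared 532 genes. It was 139 with a replicate block. Replicate numbers are not known to pair the libraries (correlation of deviations -0.10), and the crossed pairing gave 264. Leaving out 1 library gave 107 to 907: 907 without control replicate 1, 494 without control replicate 2 (404 of them higher, median of all genes 0.72), 120 without TGFB1 replicate 1 and 107 without TGFB1 replicate 2. DESeq2 size factors, at least 1000 genes, at most 10% mitochondrial counts, high doublet scores removed and the collagen exclusion dropped gave between 481 and 644 genes. Of the 20 genes of largest change, 16 passed in DESeq2 and 14 to 20 with 1 library left out. Of the 68 other list genes that passed, 9 did so in DESeq2, 8 with no filter, 25 with a replicate block, 67 without control replicate 1, 16 without control replicate 2 (where 4 were not tested), 19 without TGFB1 replicate 1 and 17 without TGFB1 replicate 2.

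The difference from KRT7-negative cells (913 genes) was 53 with no library block and 164 to 1249 with 1 library left out. That from collagen-positive cells (290) was 13 with no library block and 27 to 392. The count in KRT7-negative cells (1265) ran from 589 to 5222 with 1 library left out. Signs changed without control replicate 2 for APOA2 against collagen-positive cells (0.51, range with 1 library left out -8.92 to 0.51) and, in KRT7 cells, for CFTR (-1.32 to 0.16), DCDC2 (-1.73 to 8.81), FXYD2 (-1.43 to 0.35), TSPAN8 (-1.32 to 1.76), OLFM4 (-1.12 to 0.16), TFF1 (-2.17 to 8.13), PDX1 (-1.46 to 7.92) and GATA3 (3.66 to -0.48), the second value being that without it. For CHGA the range was -1.77, without TGFB1 replicate 1, to 8.39. Without control replicate 2 the control is 21 cells, and the fitted values of genes at 0 UMIs depend on the prior count. Gene fits with at least 4 KRT7 UMIs or thinned cells were not run, as 1 library had 5 or 7 cells. Depth limits control replicate 1, and the number of KRT7 epithelial cells limits both controls (21 and 182).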
